A study of Mus musculus with 4 samples.

Results

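The arginine methyltransferase genes Prmt1, Prmt3, Prmt5, Prmt6 and Prmt7 were followed in mouse melanoma cells that lack another enzyme of the same family, Carm1. In the tables their symbols stand in capitals (PRMT1, PRMT3, PRMT5, PRMT6, PRMT7). The 5 genes were chosen by symbol alone, with no measured value in the rule, out of 3117 genes listed in either of 2 deposited tables. Each of the 5 had a row in both tables. The TSS table, for transcription start sites, holds 3112 genes, and the TES table, for transcription end sites, holds 3030. Of 10 family symbols searched, Carm1, Prmt2, Prmt8, Prmt9 and Prmt10 matched 0 rows of the tables used here, so these genes were not analysed here and the deletion could not be checked from a value of Carm1 itself.

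The cells were of the B16F10 line, an established mouse melanoma culture, in a parental form (genotype WT, called control) and in a form labelled Carm1 KO. Nascent RNA held by RNA polymerase II (Pol II) was released from chromatin with micrococcal nuclease, captured with an antibody and sequenced (mNET-seq), with 1 library per antibody and genotype and 4 libraries in all. One antibody was raised against the polymerase tail phosphorylated on serine 2 (Ser2P), a form that accumulates as the polymerase travels along a gene, and the other was the tail antibody 8WG16. Each library pooled 3 sets of cells, so no spread between replicates exists, no test of the genotypes was run, and how the knockout line was derived, or whether it is a single clone, is not given in the sources used here.

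For every gene the tables hold 1 Ser2P ratio per genotype. It sets the Ser2P signal at a site against another signal whose name the sources used here do not give, so it is a property of polymerase at that site and not a level of the transcript, and a change may lie in either signal. Read depth, window width and the scaling between libraries are unknown. A call of higher or lower means that the ratio of a gene differed at least 1.5-fold between genotypes (0.585 on the log2 scale), and each call describes these libraries only. Of 11 melanocyte marker genes sought, 6 were listed at the TSS (Tyr, Tyrp1, Pmel, Mlana, Sox10 and Mc1r) and 4 at the TES, against 0 of 10 markers of fibroblasts, immune, epithelial and endothelial cells.

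Protein arginine methyltransferases move methyl groups from S-adenosylmethionine to arginine side chains of histones, splicing factors, ribosomal proteins and other RNA-binding proteins. Type I enzymes, among them Prmt1, Prmt3, Prmt6 and Carm1, place both methyl groups on the same nitrogen (asymmetric dimethylation). The type II enzyme Prmt5 places them on different nitrogens (symmetric dimethylation), and Prmt7 adds a single methyl group. Several enzymes can act on overlapping substrates.

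The loci differ in size and surroundings (GENCODE M21, GRCm38). Prmt6 (ENSMUSG00000049300.11) is the shortest, 4890 bp on the minus strand of chromosome 3 from 110246109 to 110250998. Prmt5 (ENSMUSG00000023110.12) spans 10339 bp on the minus strand of chromosome 14, from 54507187 to 54517525, and Prmt1 (ENSMUSG00000109324.2) spans 10580 bp on the minus strand of chromosome 7, from 44975989 to 44986568. Prmt7 (ENSMUSG00000060098.11) covers 41859 bp on the plus strand of chromosome 8, from 106210936 to 106252794. Prmt3 (ENSMUSG00000030505.17) is the longest, with 79920 bp on the plus strand of chromosome 7, from 49778346 to 49858265. All are protein-coding.

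The sequences just before 3 of the starts are shown as examples from genes with different changes. Prmt5 and Prmt6 were higher in Carm1 KO cells at both ends, and Prmt3 was higher at the start and lower at the end. Prmt1, which was also higher at both ends, is not shown. Whether the TSS ratios draw on these stretches is unknown. They run 5′ to 3′ on the gene's strand, from RefSeq promoter windows on GRCm38.p6, and stop before the first annotated base of the gene. The positions are chr14:54517526-54517720 (minus strand) for Prmt5, chr3:110251000-110251249 (minus strand) for Prmt6 and chr7:49778108-49778345 (plus strand) for Prmt3. Capitals mark matches to the motifs described after them.
Prmt5: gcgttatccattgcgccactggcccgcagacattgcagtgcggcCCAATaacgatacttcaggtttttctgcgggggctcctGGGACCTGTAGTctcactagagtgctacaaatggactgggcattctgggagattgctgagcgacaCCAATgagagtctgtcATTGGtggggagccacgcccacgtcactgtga
Prmt6: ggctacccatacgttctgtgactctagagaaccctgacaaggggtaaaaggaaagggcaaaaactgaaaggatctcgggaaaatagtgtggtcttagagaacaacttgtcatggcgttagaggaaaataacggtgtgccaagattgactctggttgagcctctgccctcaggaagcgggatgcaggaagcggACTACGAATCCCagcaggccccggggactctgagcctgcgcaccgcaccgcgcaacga
Prmt3: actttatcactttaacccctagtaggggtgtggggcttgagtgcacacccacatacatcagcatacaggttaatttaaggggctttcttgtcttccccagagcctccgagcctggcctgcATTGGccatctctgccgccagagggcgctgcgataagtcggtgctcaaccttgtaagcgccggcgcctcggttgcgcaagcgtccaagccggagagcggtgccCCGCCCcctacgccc

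All 5 genes matched a RefSeq window of 250 bases before to 50 bases after the start, and each motif was searched on both strands of this window. The CCAAT box (CCAAT) was found in the windows of Prmt1, Prmt3 and Prmt5, against 37.4% of all 32851 windows. Prmt5 held 4 copies and Prmt1 held 3. The GC box (GGGCGG) was found in Prmt1, Prmt3 and Prmt7 (35.7% of all windows), with 4 copies in Prmt1. The E-box CACGTG was in Prmt1 and Prmt3 (7.15%), the ETS motif CCGGAAG in Prmt3 (8.86%), and the TATA motif TATAAA in 0 of the 5 (13.6%). The pattern ACTACNNNTCCC, a part of the site of the zinc finger factor ZNF143, was in Prmt5 and Prmt6 and in 2.13% of all windows. It was sought only after these sequences had been read. The windows of Prmt1, Prmt3 and Prmt7 lacked it, and of these Prmt1 was also higher at both ends. The GC content was 55% in Prmt6, 57.7% in Prmt1, 58% in Prmt5, 61.7% in Prmt3 and 69.7% in Prmt7, against a median of 52.7% over all windows. Some of the matches counted lie after the shown stretch, such as the E-box and the ETS match of Prmt3. A match describes letters in the window and not a bound factor.

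At the TSS the ratio of every gene passed the 1.5-fold limit upward in the knockout, 5 of 5, where 71.2% of 2859 compared genes were also called higher and 5.6% lower. The median of the 5 log2 changes was 2.42, against 1.17 for all compared genes. Since a difference in scale between the libraries would move every gene, the changes are also given relative to that median of 1.17. On that footing 3 of the 5 were at least 1.5-fold higher and 0 lower, beside 28.6% and 28.8% of all genes. These 3 were Prmt5, Prmt6 and Prmt7. With 5 genes and no replicates, nothing is claimed from these counts about the family as a whole.

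**Figure D1:**
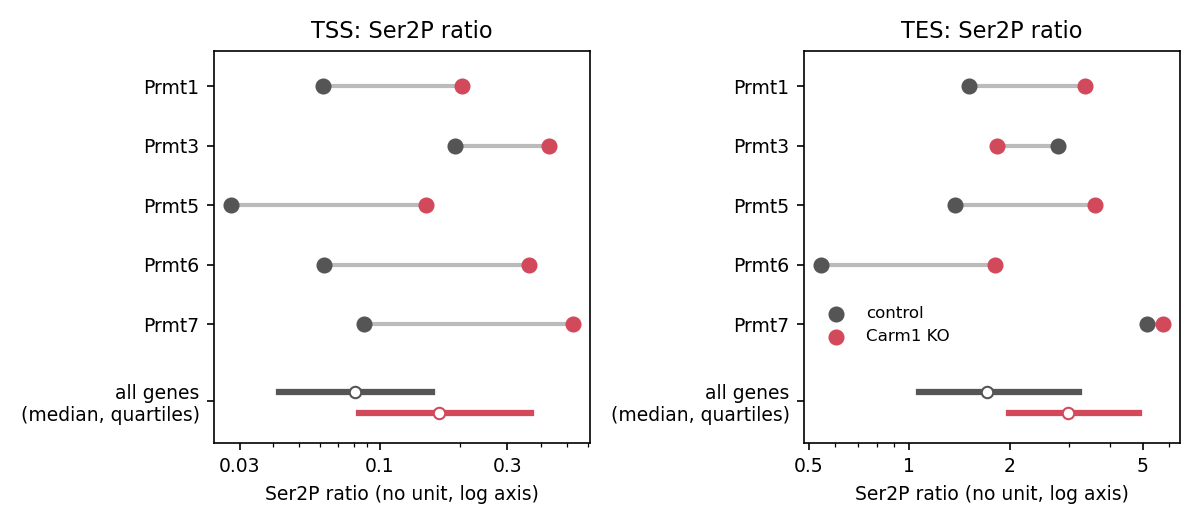
Ser2P ratio (no unit, log axis) of each gene at the TSS (left) and TES (right) in the control (grey) and Carm1 KO (red) libraries, 1 pooled library per genotype, with the median and quartiles of all listed genes below. At the TSS every red point lies to the right of its grey point, and at the TES the Prmt3 points are in the opposite order and the Prmt7 points, 5.14 and 5.73, lie close together.

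Among the asymmetric enzymes, Prmt6, a nuclear enzyme that methylates histone tails, went from a TSS ratio of 0.0618 in control cells to 0.361 in the knockout. This is 5.85-fold higher (log2 change 2.55), rank 328 from the highest of 2859 changes. The share of listed genes below Prmt6 was 38.0% in control cells and 74.6% in the knockout.

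Prmt1, the enzyme credited with most asymmetric dimethylation in mammalian cells, started from nearly the same control ratio, 0.0617, and reached 0.203 in Carm1 KO cells. The change of 3.30-fold (1.72) was smaller than that of Prmt6 and ranked 849. Relative to all genes it was 0.55, under the 1.5-fold threshold. Prmt1 thus moved from 38.0% of genes below it to 58.5%.

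Prmt3, a cytosolic enzyme known for methylating the ribosomal protein Rps2, had the highest control TSS ratio of the 5, 0.190, above 79.1% of listed genes. Its Carm1 KO ratio was 0.430, above 77.3%. The log2 change, 1.18, was the smallest of the 5 and ranked 1419, 0.01 above the median of all genes. Relative to the median of genes of like control TSS ratio it was 0.64, past the 1.5-fold threshold. By rank the TSS ratio of Prmt3 lay at a like place among all genes in both genotypes, while the other 4 moved up.

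Prmt5, the main symmetric enzyme, had the lowest TSS ratio of the 5 in both genotypes, 0.0279 in control cells and 0.149 in the knockout. The change was 5.34-fold (2.42, rank 387), or 1.25 relative to all genes. Only 15.5% of genes lay below Prmt5 in control and 45.6% in Carm1 KO cells. Its Carm1 KO ratio was held exactly by 23 other genes, so this value is coarse.

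Prmt7, the monomethylating enzyme, had 0.0876 in control cells and 0.526 in the knockout, the highest Carm1 KO value of the 5. The change of 6.01-fold (2.59) was the largest of the 5 and ranked 315, and neither value was held by another gene. Prmt7 passed from 54.1% of genes below it to 79.6%.

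The order of the 5 TSS ratios was Prmt5, Prmt1, Prmt6, Prmt7, Prmt3 from lowest to highest in control cells, and Prmt5, Prmt1, Prmt6, Prmt3, Prmt7 in Carm1 KO cells. Prmt1 and Prmt6 were all but equal in control. With no replicates, no neighbours in either order can be said to differ beyond a measured spread. The highest of the 5 was 6.81 times the lowest in control and 3.53 times in Carm1 KO cells.

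At the TES the 5 genes parted. Prmt1, Prmt5 and Prmt6 were called higher in the knockout, Prmt3 was lower and Prmt7 lay in between. Thus 3 of 5 were called higher and 1 lower, where 66.7% of 3016 compared genes were higher and 7.13% lower. The median of the 5 was 1.16, against 0.85 for all genes. Relative to that median 1 of 5 was higher (Prmt6) and 2 were lower (Prmt3 and Prmt7), beside 11.6% and 22.0% of all genes.

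Prmt6 had the lowest TES ratio of the 5 in control cells, 0.544, with 4.79% of listed genes below it, and 1.81 in the knockout, with 20.6% below. The change, 3.32-fold (1.73), ranked 130 of 3016, the highest place of any of the 5 at either end. Relative to all genes it was 0.88. With a pseudocount of 0.796, which is larger than its control ratio, the log2 change of Prmt6 was 0.96. That of Prmt5 was then 1.02, so the first place of Prmt6 among the 5 at the TES did not hold in that setting. Prmt6 stood in the upper part of the changes and the lower part of the ratios in both genotypes.

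Prmt5 had TES ratios of 1.37 in control cells and 3.60 in the knockout, a change of 2.62-fold (1.39, rank 391). Prmt1 had 1.51 and 3.36, a change of 2.23-fold (1.16, rank 792). Both went from below the median of all listed genes, 1.71 in control, to above it, 2.99 in Carm1 KO cells. Relative to all genes the changes were 0.54 and 0.31, each under the threshold.

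Prmt7 had the highest TES ratio of the 5 in both genotypes, 5.14 in control cells and 5.73 in the knockout. Its change was 1.12-fold (0.16, rank 2446), or -0.69 relative to the median of all genes. The gene with the largest TSS change of the 5 was thus among those with little difference at the end. The control TES value of Prmt7 was shared with 10 other genes.

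The TES ratio of Prmt3 was 2.79 in control cells against 1.83 in the knockout. It was the only one of the 5 with a lower value in Carm1 KO cells, 0.654 times that of control (log2 change -0.61, rank 209 from the lowest of 3016). In control 70.0% of genes lay below it and in Carm1 KO cells 20.9%. The call is narrow: with a pseudocount of 0.796 the log2 change was -0.45, short of 1.5-fold, while relative to all genes it was -1.46.

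**Figure D2:**
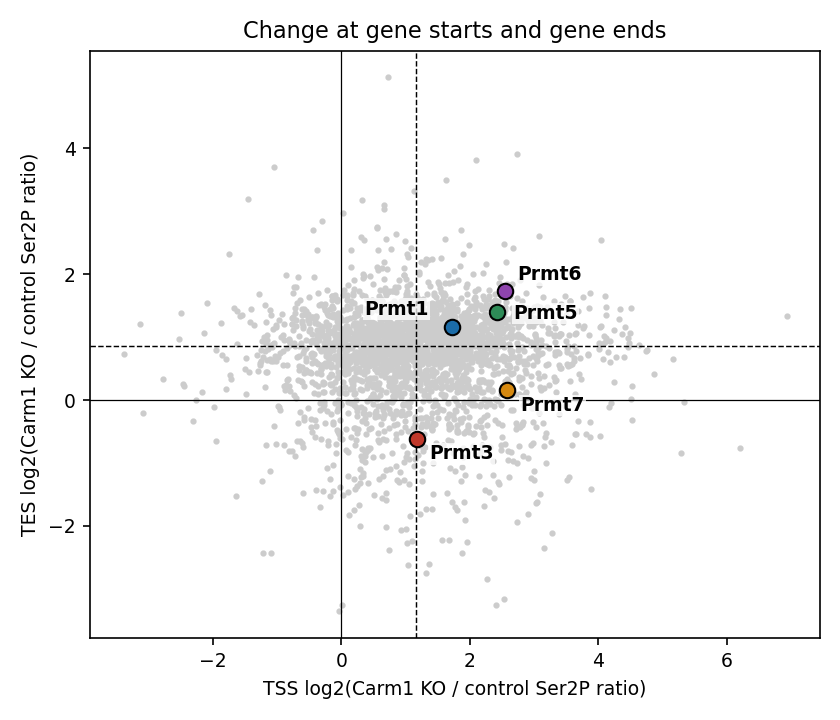
Log2 change of the Ser2P ratio (Carm1 KO over control) at starts (horizontal axis) and ends (vertical axis) of 2775 genes above 0 in both genotypes at both ends (grey), with the 5 genes in colour. Solid lines mark no change and dashed lines the medians of all compared genes, 1.17 and 0.85; Prmt5, Prmt6 and Prmt1 lie in the upper right, Prmt7 at 2.59 and 0.16, and Prmt3 at 1.18 and -0.61.

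Set side by side, Prmt1, Prmt5 and Prmt6 were called higher at both ends, as were 49.2% of 2775 genes above 0 throughout. Prmt3 was higher at the TSS and lower at the TES, a combination found in 4.58% of these genes. That share covers genes of all lengths and was not computed for long genes such as Prmt3. Start and end values come from the same libraries, so the changes at both ends are not independent of each other.

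The gradient, the TES ratio divided by the TSS ratio of the same gene and library, removes any factor that scales a whole library. In control cells it was 58.7 for Prmt7, 49.1 for Prmt5, 24.4 for Prmt1, 14.7 for Prmt3 and 8.81 for Prmt6. The median of all genes was 19.5. In Carm1 KO cells it was 24.1 for Prmt5, 16.5 for Prmt1, 10.9 for Prmt7, 5.01 for Prmt6 and 4.24 for Prmt3, against a median of 15.7. Every one of the 5 kept a higher ratio at its end than at its start in both genotypes, and every one had a smaller gradient in Carm1 KO cells. Most of the 2775 genes also had a smaller gradient in the knockout, with a median log2 difference of -0.40.

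At least 1.5-fold, 4 of the 5 gradients were lower in the knockout and 0 higher, where 44.2% of 2775 genes were lower and 19.8% higher. Relative to the median of all genes 3 were lower and 0 higher, beside 32.1% and 30.6%. The median log2 difference of the 5 was -1.03, against -0.40 for all genes. Prmt7 had the largest difference, -2.43, rank 242 from the lowest of 2775. It rests in part on a coarse value, since the control TES ratio of Prmt7 was shared with 10 other genes. Prmt3 followed with -1.79 (rank 453), Prmt5 with -1.03 (rank 861), Prmt6 with -0.82 (rank 1033) and Prmt1 with -0.56 (rank 1239). All 5 lay below the median of all genes. The fall in rank was widest for Prmt7, which had 76.8% of genes below its gradient in control and 39.2% in Carm1 KO cells (89.2% and 62.6% without genes that share a value with another gene). For Prmt3 the shares were 42.4% and 22.2% (67.2% and 44.2% without those genes). For Prmt1 they were 55.9% and 51.2% (78.2% and 70.3% without those genes). All 5 share a value with another gene at one site or the other, so they are themselves outside that set.

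**Figure D3:**
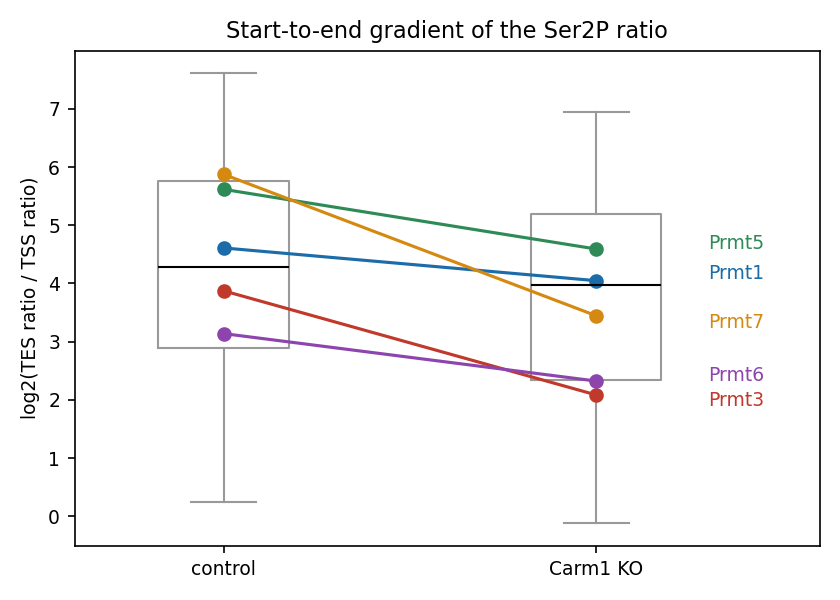
Log2 of the TES ratio over the TSS ratio in each genotype for the 5 genes (coloured lines, 1 pooled library per genotype), with boxes for 2775 genes showing the median and quartiles and whiskers to the outer 5%. All 5 lines slope down, and the steepest is that of Prmt7, from 5.87 to 3.45.

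For Prmt3, but not for the others, which end had the larger change depends on the scale between libraries. As deposited, Prmt7 had a TSS change of 2.59 and a TES change of 0.16 (log2), and relative to the medians of all genes these were 1.42 and -0.69. For Prmt3 the deposited changes were 1.18 and -0.61, and the relative ones 0.01 and -1.46, so that on the second footing the difference lay at the end. In Prmt1, Prmt5 and Prmt6 the start exceeded the end on both footings.

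The TES change varied with gene length over the whole table, and the 5 genes cover most of that range. With genes split into 10 groups of equal number by length, the median TES change was 0.89 in the group of Prmt6 (3170 to 5672 bp), 1.04 in that of Prmt1 and Prmt5 (9145 to 13063 bp), 0.67 in that of Prmt7 (33459 to 47799 bp) and -0.09 in that of Prmt3 (77024 bp and longer). Among the 298 genes of its own length group Prmt3 had 30.2% of changes below it, where 6.90% lay below it among all genes, and its distance from the group median was -0.52. In this longest group 94 of 298 genes were called lower at the TES, where 7.13% of all compared genes were. Prmt7 stood at -0.52 from its group median, with 26.6% of 297 genes below it. Prmt6 kept a high place, 0.84 above its group median with 96.3% of genes below it. Prmt5 lay 0.35 and Prmt1 0.12 above theirs.

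**Figure D4:**
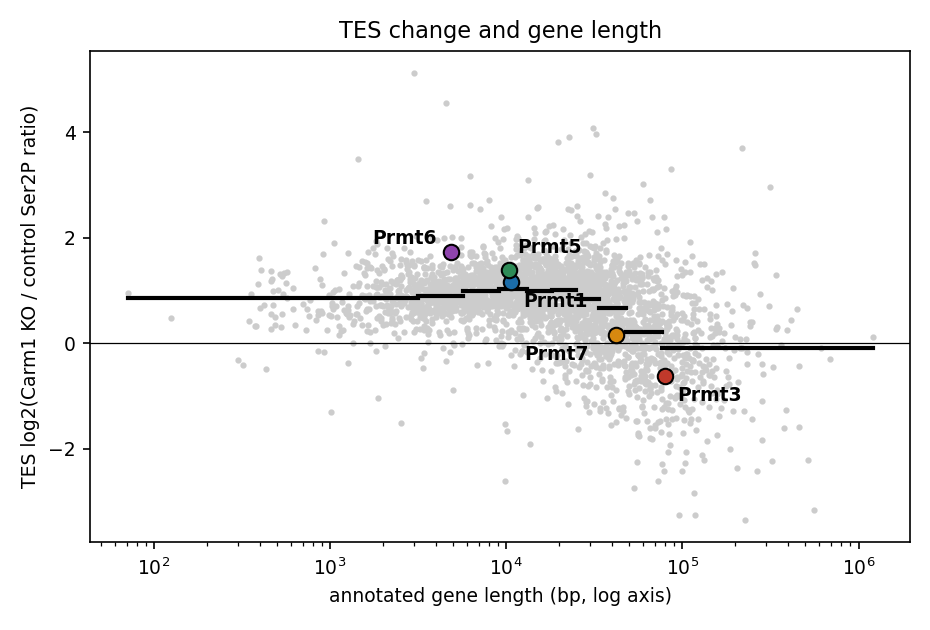
Log2 change of the TES ratio (Carm1 KO over control) against annotated gene length (bp, log axis) for all matched genes (grey), with black bars at the median of each of 10 length groups of equal number. The group medians lie near 1 up to the length of Prmt1 and Prmt5 and reach -0.09 in the longest group, where Prmt3 lies at -0.61.

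For the gradient, too, the distance from genes of like length was negative for all 5: -1.75 for Prmt7, -0.86 for Prmt5, -0.57 for Prmt6, -0.56 for Prmt3 and -0.40 for Prmt1. Against length-matched genes 2 of the 5 (Prmt7 and Prmt5) stayed at least 1.5-fold lower. Against genes of like control gradient 3 of the 5 did: Prmt3 (-1.90), Prmt7 (-1.82) and Prmt6 (-0.92). Prmt5 (-0.42) and Prmt1 (-0.29) did not. The shares of all genes past 1.5-fold under these settings were not computed, so nothing is read from these counts. At the TSS the medians of the length groups were close together. The distances from them were 1.46 for Prmt6, 1.25 for Prmt7, 1.20 for Prmt5, 0.51 for Prmt1 and 0.04 for Prmt3.

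Neighbouring genes touch some of these sites, and whether the authors' counting used strand is not given. The start of Slc7a6os, on the opposite strand, is annotated 1 bp from the start of Prmt7. Its TSS ratio was 0.0230 in control cells against 0.0189 in the knockout (log2 change -0.28), so the tables hold different values and opposite directions for these adjacent starts. Gm15545 starts 332 bp from the start of Prmt1 on the opposite strand and had TSS ratios of 0.0758 and 0.195, near those of Prmt1 (0.0617 and 0.203). Downstream, Cpt1c starts 1138 bp from the end of Prmt1 on the same strand. The TSS ratios of Cpt1c, 1.45 and 3.44, were close to the TES ratios of Prmt1, 1.51 and 3.36, and far above the median TSS ratio of all genes, 0.0809 in control. Whether the same polymerases were counted for both sites was not tested.

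The other sites adjoin genes with no row in the tables used here. The antisense gene C130013H08Rik overlaps the first 984 bp of Prmt6, the end of Smpd3 overlaps that of Prmt7 by 247 bp on the opposite strand, and the noncoding gene Gm26786 crosses the same end of Prmt7, with 14892 bp inside the gene. Gm26856 (1439 bp, opposite strand) and Gm44822 (6389 bp, same strand) lie within Prmt3. Around Prmt5 no other annotated gene overlaps the gene body or starts or ends within 5 kb of its ends.

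The genes most like each of the 5 over the 4 log2 ratios (both genotypes, both ends) were sought among 2552 genes without predicted, antisense or small RNA symbols, by Euclidean distance. Nearest to Prmt1 were U2af1 (0.16), Fcf1 (0.18) and Fastkd3 (0.18), and nearest to Prmt5 were Trp53inp1 (0.28), Dusp3 (0.61) and Cbr4 (0.62). Cyp20a1 (0.33), Bahcc1 (0.34) and Pole2 (0.46) were nearest to Prmt7. For Prmt3 they were Fam72a (0.59), Odf2l (0.68) and Cog5 (0.69), and for Prmt6 Zscan29 (0.58), Slc10a3 (0.68) and Cstb (0.76). The typical distance was larger, with medians over all genes from 2.29 for Prmt1 to 3.34 for Prmt6. Within the family, Prmt1 and Prmt5 were the closest pair (1.24) and Prmt6 and Prmt7 the farthest apart (3.72).

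The other genes of arginine methylation were taken from lists of symbols. Their counts are to be read against the shares of all compared genes, 71.2% higher and 5.6% lower at starts and 66.7% and 7.13% at ends, and against the all-gene medians of 1.17 and 0.85. Of the partner proteins that steer these enzymes, 4 of 7 were listed. At the TSS 1 of 4 was higher (all genes 71.2%), Clns1a, which presents Sm proteins to Prmt5, from 1.31 to 3.28 (log2 change 1.32). The Prmt1-binding antiproliferative genes Btg1 and Btg2 and their relative Tob1 had TSS changes of 0.12, -0.02 and 0.00, so the median of the list, 0.06, lay far below the 1.17 of all genes and the 2.42 of the enzymes. At the TES the order was turned, with Btg2 at 1.14, Tob1 at 1.05, Btg1 at 0.98 and Clns1a at 0.43, 3 of 4 called higher (all genes 66.7%).

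Genes of the methionine cycle and of S-adenosylmethionine use, which supply the methyl donor and clear its product, had 10 of 22 symbols listed. At the TSS 7 of 10 were higher and 1 lower, near the 71.2% and 5.6% of all genes, with a median of 1.38. The folate enzyme genes Mthfd1 (3.18) and Mthfd1l (1.83) were at the top and Mthfd2 (-0.21) and the polyamine enzyme gene Amd1 (-0.60) at the bottom. At the TES 8 of 10 were higher and 1 lower (all genes 66.7% and 7.13%), with a median of 0.93 against 0.85, from Apip (1.31) and Amd1 (1.18) to Ahcyl2 (0.13) and Mthfd1 (-1.01). Mthfd1 combined a higher start, from 0.0407 to 0.370, with a lower end, from 4.11 to 2.05, as Prmt3 did.

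Of readers and modifiers of methylarginine 4 of 8 were listed. Snd1, a Tudor protein that binds symmetric dimethylarginine, had a TSS change of 0.70 and a TES change of -1.59, from 1.78 to 0.590. Jmjd6 (1.17 and 0.96) and the splicing factor gene Smndc1 (0.60 and 0.90) were higher at both ends. Tdrd3, a reader of asymmetric marks, was listed at 0 at the TSS in both genotypes and was higher at the TES (1.19). Thus 3 of 3 were called higher at the TSS (all genes 71.2%), with a median of 0.70 and 1 of 3 above the all-gene median of 1.17. At the TES 3 of 4 were higher and 1 lower (all genes 66.7% and 7.13%), with a median of 0.93.

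Substrates of these enzymes had 16 of 25 symbols listed at the TSS, 15 of them above 0 in both genotypes, with 9 higher, 1 lower (all genes 71.2% and 5.6%) and a median of 1.20 against 1.17. The Sm protein gene Snrpd3 (2.18) and Khdrbs1 (2.02), which encodes the RNA-binding protein Sam68, stood at the top, and Hnrnpa1 (0.23) and the stress granule gene G3bp1 (-0.61) at the bottom. Rps2, the substrate of Prmt3, had 1.90. At the TES 8 of 15 were higher and 1 lower (all genes 66.7% and 7.13%), and 4 of 15 lay above the all-gene median, with a median of 0.74, between E2f1 (1.18), the nucleolin gene Ncl (1.06), Taf15 (-0.20) and G3bp1 (-0.69). G3bp1 was the only member of the list called lower, and it was so at both ends.

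Lysine methyltransferases, the other large family that writes methyl marks on histones, served for comparison, with 8 listed of 41 symbols searched. At the TSS 6 of 8 were higher and 2 lower (all genes 71.2% and 5.6%), with a median of 2.32, close to the 2.42 of the arginine enzymes but over a wider range. Setd7 (3.72) and Nsd3 (3.36) were at the upper end and Ezh2 (-0.61), the Polycomb enzyme, and Prdm2 (-1.73) at the lower end. At the TES 3 of 8 were higher and 1 lower (all genes 66.7% and 7.13%), with a median of 0.34 against 0.85, between Setd1a (1.90), Nsd3 (0.76), Setd5 (-0.36) and Setdb2 (-0.73). Setdb2 was higher at the TSS, with 3.15, and lower at the TES, the same combination as in Prmt3. The gradient of the lysine enzymes was at least 1.5-fold lower in the knockout for 5 of 8 and higher for 2 (all genes 44.2% and 19.8%). Their median log2 difference of the gradient was -1.68, against -1.03 for the arginine enzymes and -0.40 for all genes. In the other lists this median ran from -0.46 for the substrates to 0.95 for the partners. The difference between both families was not tested.

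**Figure D5:**
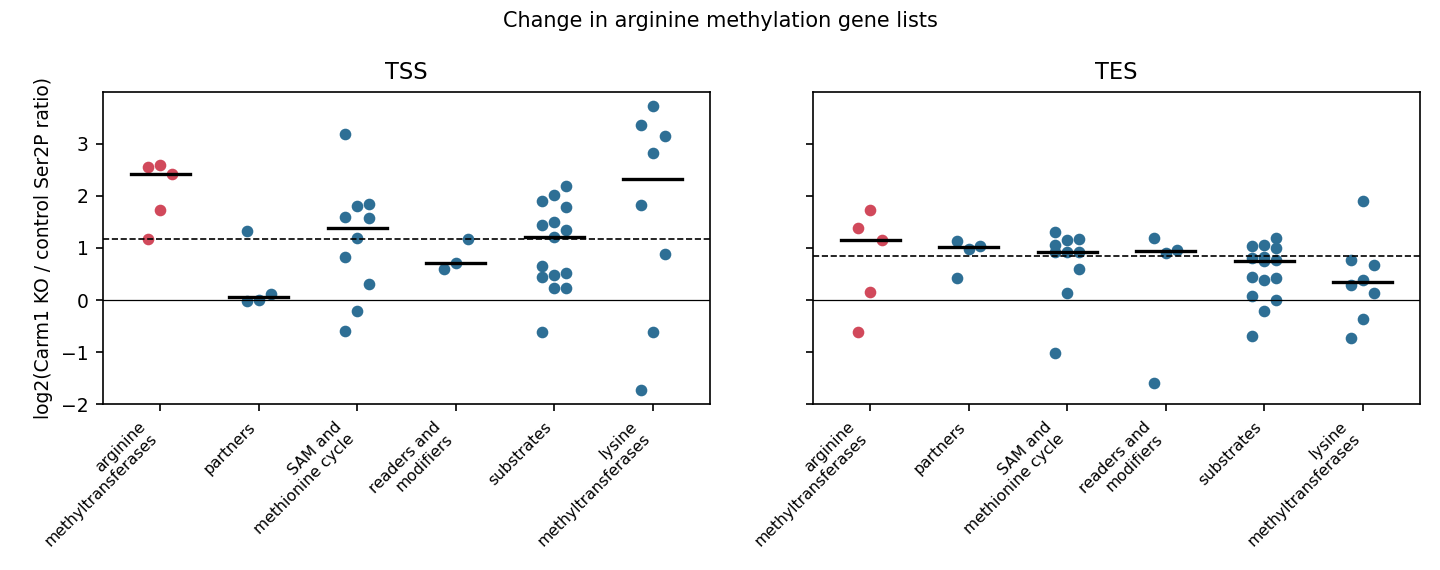
Log2 change of the Ser2P ratio (Carm1 KO over control) at the TSS (left) and the TES (right) for each compared gene of the 5 arginine methyltransferases (red) and of the 5 related lists (blue), with a black bar at each median. The dashed line is the median of all compared genes; at the TSS the red points lie at or above it, and at the TES they range from -0.61 to 1.73.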

How the data were processed

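Ser2P mNET-seq values of B16F10 control and Carm1 KO cells were taken from 2 deposited tables. The values are a linear ratio that the authors formed from the Ser2P signal, per the file headers, which call it a fraction although values exceed 1; its divisor, windows and scaling are not stated there. Reads had been handled with cutadapt 1.18 and TopHat2 2.1.1, and the genome is named as mm10 or GRCm38, per the submitters' processing notes. The difference column that the authors deposited matched the subtraction of both ratios to 1e-13 and was not used for the changes given. By that difference the 5 genes stood in another order. From the highest of all listed genes, the TSS ranks were 571 for Prmt7, 704 for Prmt6, 802 for Prmt3, 1130 for Prmt1 and 1251 for Prmt5. The TES ranks were 678 for Prmt5, 891 for Prmt1, 1391 for Prmt6, 2141 for Prmt7 and 2777 for Prmt3.

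The columns were assigned to genotypes by their names. Changes are log2(Carm1 KO / control) with no pseudocount, for genes above 0 in both. At the TSS, values of 0 numbered 101 in control and 194 in the knockout; at the TES they numbered 11 and 7. Symbols were matched to GENCODE M21 without regard to case (3071 of 3117), and promoter windows came from RefSeq (GRCm38.p6). Calculations used Python 3.11.15 and pandas 2.3.3. Known changes put on the control TSS values without noise were recovered, which checks the arithmetic only. Depth is unknown, so no counting interval was computed.

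The 5 genes, the lists and the rule for named genes (the 5, the 3 genes nearest to each, and the 2 highest and 2 lowest of each list at each end) were chosen with earlier results of these data known. Rps2, Setdb2 at the TSS and the neighbouring genes were named after their values were seen. Alternatives were a pseudocount, centring on the median of all genes or of genes of like length or control value, a 2-fold threshold, and other sets of genes for the ranks.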

Additional observations from a re-analysis of the deposited data

How the results depend on the processing

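Relative to the median of all genes, or of genes of like length, the number of the 5 genes at least 1.5-fold higher at the TSS was 3 in place of 5. At the TES it was 1 in place of 3 relative to all genes, to genes of like length and to genes of like control ratio. The number with a gradient at least 1.5-fold lower was 2 in place of 4 relative to genes of like length. Centring lowers every change by construction where most genes are higher. The shares of all genes past 1.5-fold relative to genes of like length or like control value were not computed, so those counts have no background to be read against. The TES change of Prmt7 turned from 0.16 to -0.69 relative to all genes, -0.52 by length and -0.11 by control ratio, so its direction rests on the scale between libraries. The remaining 13 settings of counts and shares stayed within 1.5 times. Among them were the 2-fold threshold and the TSS count relative to genes of like control ratio, which was 5 of 5. Of the changes of single genes under an alternative, 41 kept their call, 16 no longer passed 1.5-fold and 3, all of Prmt7 at the TES, changed sign. Of 120 alternative ranks 19 moved by more than 10 percentage points, by up to 26.4, each on leaving out genes that share a value with another gene. In that set the share of genes below the TSS ratio was 17.7% for Prmt1 and Prmt6, 27.7% for Prmt7 and 53.1% for Prmt3 in control cells, and in the knockout 34.6% for Prmt1, 26.2% for Prmt5, 48.4% for Prmt6, 51.9% for Prmt3 and 54.8% for Prmt7. The share below the knockout gradient was 46.4% for Prmt6, 44.2% for Prmt3, 62.6% for Prmt7, 70.3% for Prmt1 and 79.7% for Prmt5. For the control gradient it was 53.3% for Prmt6, 67.2% for Prmt3, 89.2% for Prmt7, 78.2% for Prmt1 and 86.8% for Prmt5. Prmt1, Prmt5 and Prmt6 at the TSS, and all 5 genes for the gradient, share a value with another gene themselves. They are thus outside that set, and their values were placed among the genes that remain. The cause of the moves was not tested. No paired analysis was possible because each genotype has 1 pooled library per antibody, and no replicate could be left out. Depth is unknown, so no precision can be given for a ratio. Ratios held exactly by several genes are coarse, such as the knockout TSS ratios of Prmt5 (23 other genes) and Prmt1 (5 other genes). The control TES ratio of Prmt7 (10 other genes), which enters its gradient, is another.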
